A study of Mus musculus with 8 samples.

Results

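Interferon-stimulated genes were followed in 4 sorted populations of mouse common myeloid progenitors, the bone marrow cells from which granulocytes, monocytes, red cells and platelets arise. The genes were 40 listed interferon response genes, taken by symbol from the 24411 genes of the deposited tables. All 40 were found, and all 40 were among the 13177 genes that passed the filter on low counts. By role they were classed as 9 sensors of foreign nucleic acid, 12 genes of signalling and its regulation, and 19 effectors and others. All cells came from wild-type C57BL/6 mice and were sorted as KIT+ and CD16/32-, and the labels name no treatment. Each population had 2 libraries. CD48dim and CD48bright cells were CD34dim CD41+ CD9+ and differed in surface CD48. CD34bright cells were CD41+ CD9+. The remaining cells were CD34dim CD41- CD9- and are called CD41/CD9-negative. Whether both libraries of a population are from different mice, or from the same sort, is not in the labels, and p-values therefore cover the spread among these libraries alone, some or all of which may be technical.

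Interferons are secreted proteins that signal through paired receptors, receptor-bound kinases and transcription factors that include STAT2 and IRF9. A complex with IRF9 binds the interferon-stimulated response element in the promoters of many target genes. Those targets hold the sensors that detect viral nucleic acid, the factors that amplify or restrain the signal, and the proteins that block viral entry, replication and release. In blood formation, interferon response genes are known to be active at a basal level in stem cells and progenitors without infection.

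The promoters were read first, because the element is what the listed genes are known to share. RefSeq promoter windows (GRCm38.p6, 250 bases before to 50 after the start) were matched for 31 of the 40 genes. The core letters of the element, GAAA, then 2 bases of any kind, then GAAA, searched on both strands, stood in 15 of these 31 genes (48.4%), against 3.99% of the 27025 genes with a window. Sensors held them in 6 of 6 genes, effectors in 7 of 16 and signalling genes in 2 of 9. A match is a run of letters in a window and not a measured binding site. The 6 stretches below, each of 100 bases, are from the gene at 0 in CD48dim cells and from 5 of the genes that were highest in CD48dim cells. Capitals mark the matches, all sequences run 5′ to 3′ on the strand of the gene, and a match read on the other strand appears as TTTC, 2 bases and TTTC.
Ifi205, chr1:174031850-174031949, minus strand: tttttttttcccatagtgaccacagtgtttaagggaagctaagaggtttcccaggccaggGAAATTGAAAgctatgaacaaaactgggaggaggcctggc
Ddx58, chr4:40239806-40239905, minus strand: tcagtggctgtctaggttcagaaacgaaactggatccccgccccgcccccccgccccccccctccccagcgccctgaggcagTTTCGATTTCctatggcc
Isg15, chr4:156200845-156200944, minus strand: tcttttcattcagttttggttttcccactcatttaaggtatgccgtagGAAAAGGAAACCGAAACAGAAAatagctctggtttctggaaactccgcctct
Oas3, chr5:120777695-120777794, minus strand: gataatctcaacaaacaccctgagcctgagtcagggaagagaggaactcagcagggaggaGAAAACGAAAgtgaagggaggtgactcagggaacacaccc
Rsad2, chr12:26456533-26456632, minus strand: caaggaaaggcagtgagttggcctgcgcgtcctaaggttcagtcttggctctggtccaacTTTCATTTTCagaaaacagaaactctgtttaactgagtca
Ifit1, chr19:34640744-34640843, plus strand: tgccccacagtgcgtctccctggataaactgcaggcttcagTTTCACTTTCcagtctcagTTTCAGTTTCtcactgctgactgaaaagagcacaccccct

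Isg15 held 3 overlapping matches, beginning 78, 72 and 66 bases before its start. Ifit1 held 2, beginning 104 and 85 bases before its start. Ifi205 held the same letters 134 bases before its start, and again 24 bases after it, beyond the stretch printed. The letters therefore stood in genes with opposite patterns across the populations, since Ifi205 was lowest in CD48dim cells and the other 5 were highest there. Of the listed genes with a window, 6 of the 9 with both CD48dim libraries above all others held the letters, and 9 of the other 22 did.

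Depth and library quality bear on every value below. Libraries held between 7237587 and 20632005 expected counts, the lowest in CD48dim replicate 2. That library also had the fewest genes with a count, 12663 against 13659 to 16406 in the others. Malat1 took 3.92% of its counts, against 0.470% to 1.53% in the others. The Spearman correlation between the libraries of a population, across the 13177 genes, was 0.836 in CD48dim, 0.962 in CD41/CD9-negative, 0.976 in CD34bright and 0.954 in CD48bright. Every level is in CPM, the count over the library total as scaled by TMM, and a mean carries its SD over 2 libraries. Calls were made in edgeR's quasi-likelihood test with Benjamini-Hochberg adjustment over all tested genes, at an adjusted p below 0.05. In these bulk samples a higher level in every cell cannot be told apart from more cells that express the gene.

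The listed genes took 0.269% and 0.238% of all counts in the CD48dim libraries, 0.180% and 0.167% in CD41/CD9-negative, 0.151% and 0.132% in CD34bright and 0.151% and 0.149% in CD48bright. Both CD48dim libraries were above the rest on this share, and both CD41/CD9-negative libraries came next. Per length, the most abundant listed gene was Ifitm3, which encodes a membrane protein that blocks viral entry, at a mean of 762 TPM over the 8 libraries. Ifit3, an antiviral protein of the same family as Ifit1, was the least abundant at 1.00 TPM and was listed at 0 in CD48dim replicate 2. The median over genes of these mean levels was 18.6 TPM for sensors, 24.0 TPM for signalling genes and 19.2 TPM for effectors.

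**Figure D1:**
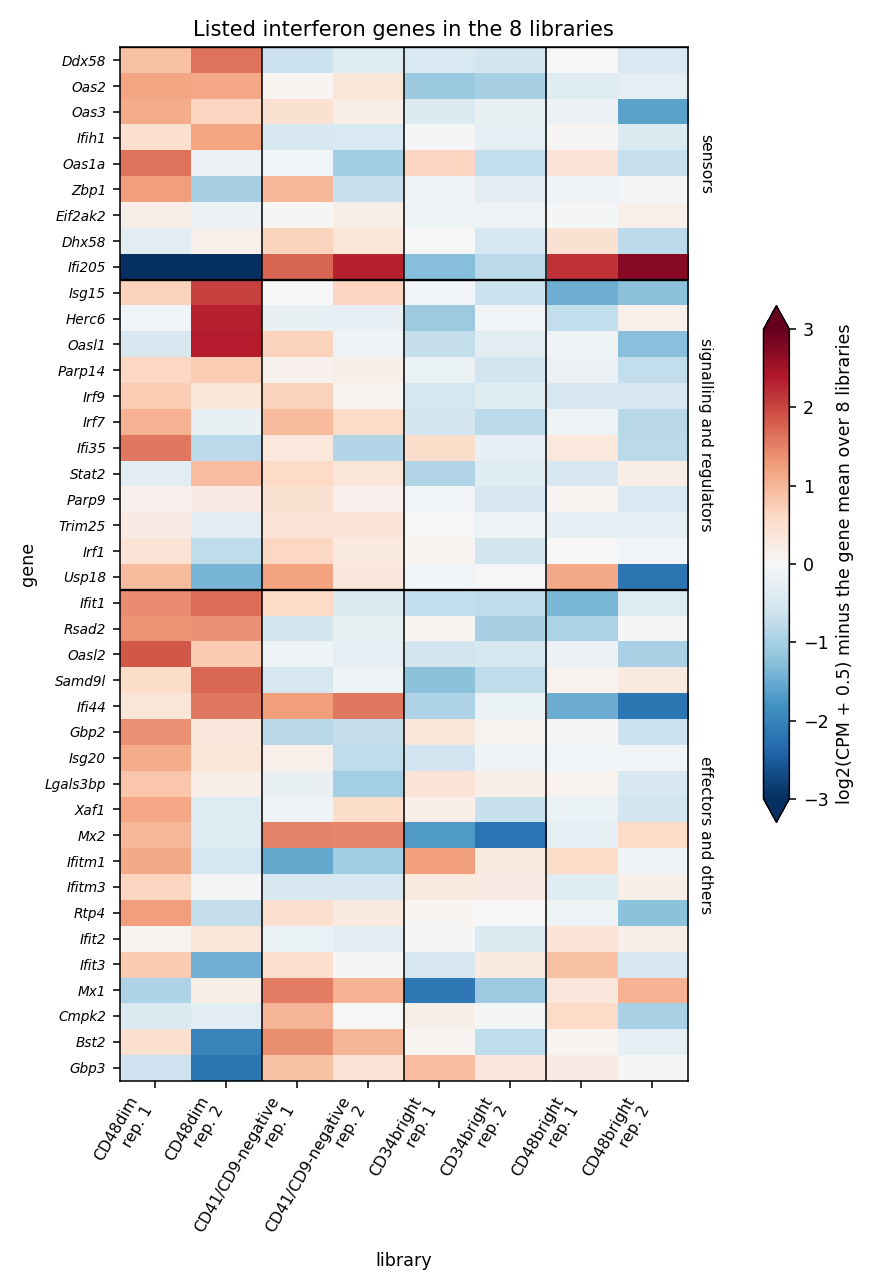
Level of each of the 40 listed genes (rows, grouped by role) in each of the 8 libraries (columns), as log2(CPM + 0.5) minus the mean of the gene over the 8 libraries, red above and blue below, with colours limited to 3 on either side. Ddx58, Oas2, Ifit1 and Rsad2 are red in both CD48dim columns, but Herc6 and Oasl1 are red in replicate 2 and Oas1a and Ifi35 in replicate 1.

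Across the 4 populations, 3 of the 40 genes differed by the test of any difference, and 2.44% of all tested genes did. They were the sensors Ifi205 (adjusted p = 0.00662) and Ddx58 (adjusted p = 0.0480) and the effector Ifi44 (adjusted p = 0.0354), all by edgeR. Without adjustment 19 of the 40 had a p below 0.05, against 16.8% of all tested genes. Leaving out single libraries ended some of these calls: Ifi205 was called in 8 of 8 such fits, Ifi44 in 2 of 8 (adjusted p up to 0.150) and Ddx58 in 1 of 8 (adjusted p up to 0.187). Every library that was left out ended the call of Ddx58 except CD48dim replicate 1, and the call of Ifi44 ended when any 1 of the 6 libraries of the other populations was left out.

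Ifi205 (chromosome 1, 174011998 to 174031755) belongs to an interferon-inducible family of DNA-binding proteins that also holds the DNA sensor Aim2. It is classed here with the sensors, but whether it senses nucleic acid itself was not measured. It had 0 CPM in both CD48dim libraries, 17.9 and 26.7 CPM in CD41/CD9-negative, 1.75 and 2.63 CPM in CD34bright and 24.2 and 36.0 CPM in CD48bright. The libraries of CD48dim and CD34bright were all below those of the other populations, and no populations overlapped except CD41/CD9-negative and CD48bright. With a limit of 3 counts over both CD48dim libraries (0.144 CPM, counting error only), its level in CD48dim was at least 156-fold lower than in CD41/CD9-negative, at least 15.3-fold lower than in CD34bright and at least 210.0-fold lower than in CD48bright. Ifi205 fell in CD48dim in all 3 pairs, with adjusted p = 0.0026 against CD41/CD9-negative, 0.0388 against CD34bright and 0.0124 against CD48bright (edgeR). The call against CD34bright held in 2 of 8 fits that left out a library (adjusted p up to 0.166), and that against CD48bright ended without CD48bright replicate 2 (adjusted p = 0.0605; 0.000252 to 0.0605 over the 8 fits). Ifi205 has close relatives, and the posterior SD of its estimated count reached 11.5% of the count, the largest among the listed genes. That value covers the assignment of reads in libraries with a count. It covers neither the spread between libraries nor the 0 in CD48dim.

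Ddx58 (chromosome 4, 40203777 to 40239825) encodes RIG-I, a sensor of viral RNA in the cytoplasm. It had 102 and 171 CPM in CD48dim cells, 34.9 and 42.7 CPM in CD41/CD9-negative, 39.9 and 37.2 CPM in CD34bright and 55.3 and 40.2 CPM in CD48bright. Both CD48dim libraries were above the other 6, among which CD41/CD9-negative overlapped both other populations. Ddx58 rose in CD48dim over CD41/CD9-negative, with a log2 fold change of 1.81 ± 0.38 (SE, adjusted p = 0.0331, edgeR), a call that held in 2 of 8 fits without a library (log2 fold change 1.39 to 2.13, adjusted p up to 0.265). Its log2 fold change was 1.82 ± 0.38 over CD34bright (adjusted p = 0.0675) and 1.51 ± 0.38 over CD48bright (adjusted p = 0.144), and neither passed.

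The other sensors were uneven. Ifih1, which encodes the RNA sensor MDA5, had 70.6 and 113 CPM in CD48dim cells, 35.3 and 36.1 CPM in CD41/CD9-negative, 47.6 and 40.2 CPM in CD34bright and 50.6 and 36.4 CPM in CD48bright. Oas2, an oligoadenylate synthetase that activates RNase L on binding RNA, had 36.4 and 35.6 CPM in CD48dim cells, 16.4 and 20.2 CPM in CD41/CD9-negative, 6.96 and 7.60 CPM in CD34bright and 12.2 and 12.7 CPM in CD48bright. For both genes, and for Oas3, the CD48dim libraries lay above the other 6, and for Oas2 no populations overlapped at all. The log2 fold change of Oas2 was 2.30 ± 0.46 over CD34bright and did not pass (adjusted p = 0.0622, edgeR).

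Oas1a, another synthetase, had 55.1 and 15.4 CPM in CD48dim cells, 16.4 and 8.15 CPM in CD41/CD9-negative, 27.6 and 10.3 CPM in CD34bright and 23.9 and 10.5 CPM in CD48bright. It was above all other libraries in CD48dim replicate 1 and among them in CD48dim replicate 2. Zbp1, a sensor of Z-form nucleic acid, was the highest of the 8 libraries in CD48dim replicate 1 at 7.12 CPM and the lowest in CD48dim replicate 2 at 1.10 CPM. Eif2ak2 encodes the RNA-activated kinase PKR. It had 123 and 96.2 CPM in CD48dim cells, 112 and 125 CPM in CD41/CD9-negative, 98.2 and 99.1 CPM in CD34bright and 105 and 123 CPM in CD48bright, so that CD34bright lay below CD41/CD9-negative and CD48bright, and CD48dim overlapped all 3. It overlaps the gene Gm6548, which had 3096 counts against 12010 for Eif2ak2. Dhx58, which encodes the RIG-I relative LGP2, ranged from 7.50 to 21.5 CPM.

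Among the signalling genes none was called in any of the 7 tests, and the CD48dim and CD41/CD9-negative populations shared the higher levels in 4 of 12 (2.99% of all tested genes had all 4 of those libraries above the other 4). Irf9, a DNA-binding factor of the interferon signal, had 123 and 93.2 CPM in CD48dim cells, 118 and 76.0 CPM in CD41/CD9-negative, 50.4 and 56.2 CPM in CD34bright and 50.8 and 51.4 CPM in CD48bright. Parp14, an ADP-ribosyltransferase, had 135 and 149.6 CPM in CD48dim cells, 96.7 and 98.8 CPM in CD41/CD9-negative, 76.1 and 58.7 CPM in CD34bright and 77.1 and 52.7 CPM in CD48bright. All 4 libraries of the CD48dim and CD41/CD9-negative populations were above the other 4 for both genes, and for Parp14 CD48dim was also above CD41/CD9-negative. Isg15 (chromosome 4, 156199424 to 156200818), a ubiquitin-like protein that is joined to other proteins during the response, had 3.82 and 10.6 CPM in CD48dim cells, 2.20 and 3.63 CPM in CD41/CD9-negative, 2.01 and 1.21 CPM in CD34bright and 0.468 and 0.640 CPM in CD48bright. No populations overlapped, but the level was low, with 274 counts over all 8 libraries. The log2 fold change of Isg15 in CD48dim over CD48bright was 3.68 ± 1.09, which did not pass (adjusted p = 0.191, edgeR).

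Herc6, a mouse ligase for Isg15, had 49.0 and 255 CPM in CD48dim cells, 44.1 and 43.0 CPM in CD41/CD9-negative, 24.0 and 48.2 CPM in CD34bright and 30.9 and 57.0 CPM in CD48bright. CD48dim replicate 2 alone stood apart, and CD48dim replicate 1 was within the range of the others. Trim25 encodes a ubiquitin ligase that acts on RIG-I. It had 172 and 115 CPM in CD48dim cells, 194 and 189 CPM in CD41/CD9-negative, 147 and 129.9 CPM in CD34bright and 117 and 119 CPM in CD48bright, highest in both CD41/CD9-negative libraries. Irf1, a transcription factor induced by interferon gamma, had 58.0 and 25.4 CPM in CD48dim cells, 67.0 and 53.4 CPM in CD41/CD9-negative, 45.9 and 29.3 CPM in CD34bright and 42.8 and 41.1 CPM in CD48bright, and the CD48dim libraries lay on either side of all 4 CD34bright and CD48bright libraries. Parp9 also had all 4 CD48dim and CD41/CD9-negative libraries above the other 4, but it overlaps Dtx3l, which had 14018 counts against 4346 for Parp9, and the libraries carry no strand information.

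**Figure D2:**
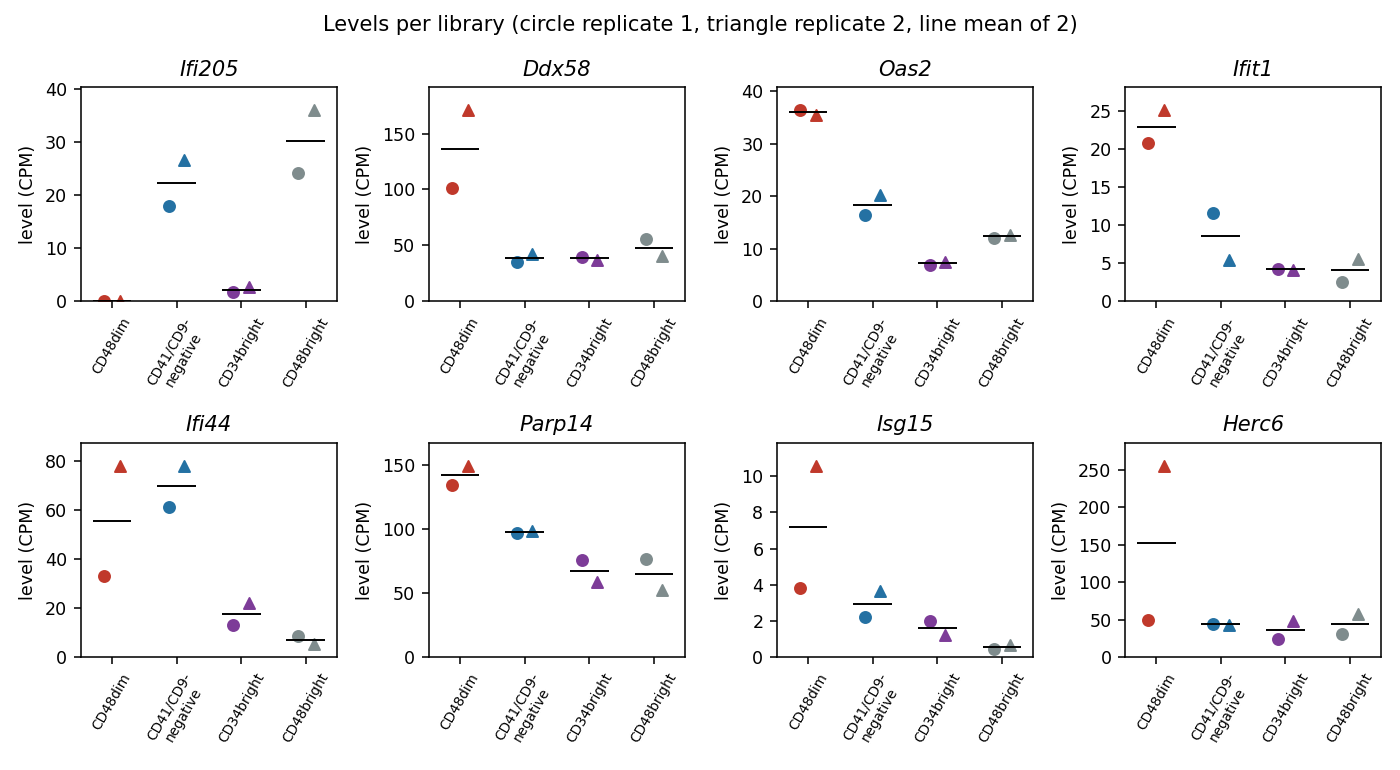
Level in CPM (vertical axes, from 0) of 8 listed genes in the 4 populations, with a circle for replicate 1, a triangle for replicate 2 and a line at their mean. Both CD48dim libraries are above the others for Ddx58, Oas2, Ifit1, Parp14 and Isg15 and at 0 for Ifi205, Ifi44 is high in CD48dim and CD41/CD9-negative, and Herc6 is high in CD48dim replicate 2 alone.

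The effectors held the third called gene. Ifi44 (chromosome 3, 151730922 to 151749910), an interferon-inducible protein, had 33.2 and 78.2 CPM in CD48dim cells, 61.5 and 78.1 CPM in CD41/CD9-negative, 13.3 and 22.2 CPM in CD34bright and 8.74 and 5.30 CPM in CD48bright. The CD48dim and CD41/CD9-negative libraries overlapped and lay above the other 4, and both CD48bright libraries were the lowest. None of its pairs passed, the largest being CD41/CD9-negative over CD48bright at a log2 fold change of 3.31 ± 0.56 (adjusted p = 0.0642) and CD48dim over CD48bright at 2.98 ± 0.55 (adjusted p = 0.0698, edgeR).

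Samd9l, an antiviral factor that restrains translation, had 109 and 246 CPM in CD48dim cells, 52.3 and 68.1 CPM in CD41/CD9-negative, 31.7 and 43.6 CPM in CD34bright and 80.3 and 90.6 CPM in CD48bright, with no overlap between populations. Oasl2, a relative of the oligoadenylate synthetases, had 141 and 66.2 CPM in CD48dim cells, 35.2 and 31.3 CPM in CD41/CD9-negative, 26.1 and 26.4 CPM in CD34bright and 34.0 and 19.2 CPM in CD48bright. Both genes were highest in the CD48dim libraries, Samd9l in replicate 2 and Oasl2 in replicate 1, and neither was called in any pair. Rsad2, which encodes the antiviral enzyme viperin, and Ifit1, which binds viral RNA, were among the genes on which the CD48dim libraries were close to each other. Rsad2 had 29.8 and 30.1 CPM in CD48dim and 5.40 to 12.0 CPM in the other 6 libraries. Ifit1 had 20.8 and 25.1 CPM in CD48dim and 2.60 to 11.6 CPM in the other 6.

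Other effectors were highest outside CD48dim. Mx1, an antiviral GTPase gene that the GRCm38 annotation lists as a transcribed pseudogene, had 6.09 and 13.9 CPM in CD48dim cells, 36.1 and 25.5 CPM in CD41/CD9-negative, 2.37 and 5.47 CPM in CD34bright and 15.5 and 25.4 CPM in CD48bright. Mx2, its neighbour with the same annotation, had 7.49 and 2.61 CPM in CD48dim cells, 10.7 and 10.6 CPM in CD41/CD9-negative, 0.722 and 0.355 CPM in CD34bright and 2.76 and 5.58 CPM in CD48bright. Both genes were highest in the CD41/CD9-negative libraries and lowest in the CD34bright libraries, and the log2 fold change of CD41/CD9-negative over CD34bright was 2.98 ± 0.68 for Mx1 (adjusted p = 0.0984) and 4.27 ± 0.98 for Mx2 (adjusted p = 0.0999), short of the threshold in edgeR. Bst2, the gene of tetherin, which holds budding virus at the cell surface, was also highest in CD41/CD9-negative, and is at the same time a marker of plasmacytoid dendritic cells.

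The most abundant effectors were lowest in CD41/CD9-negative or close to it. Ifitm3 had 254 and 156 CPM in CD48dim cells, 116 and 116 CPM in CD41/CD9-negative, 198 and 192 CPM in CD34bright and 126 and 184 CPM in CD48bright. Ifitm1, of the same family, had 163 and 51.1 CPM in CD48dim cells, 24.9 and 35.6 CPM in CD41/CD9-negative, 174 and 89.2 CPM in CD34bright and 109 and 67.1 CPM in CD48bright. Both were lowest in the CD41/CD9-negative libraries, as were Gbp2 and Ifih1. Lgals3bp, a secreted glycoprotein, had 298 and 192 CPM in CD48dim cells, 143 and 82.5 CPM in CD41/CD9-negative, 220.3 and 189 CPM in CD34bright and 179 and 119.7 CPM in CD48bright, so that the CD48dim and CD34bright libraries lay above the other 4. Gbp3, a guanylate-binding protein, was the only listed gene besides Ifi205 that was lowest in both CD48dim libraries, at 19.9 and 6.32 CPM against 31.6 to 59.3 CPM in the other 6.

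The patterns were then counted over all 40 genes, a count chosen after the values were seen. Both CD48dim libraries were above the other 6 for 11 genes (27.5%), against 11.6% of all tested genes, and below them for 2 (5%), against 11.6%. The 11 were the sensors Ddx58, Ifih1, Oas2 and Oas3, the signalling genes Isg15 and Parp14, and the effectors Ifit1, Isg20, Oasl2, Rsad2 and Samd9l. With CD48dim replicate 1 left out the count was 15 of 40, against 30.0% of all tested genes, and with CD48dim replicate 2 left out it was 21 of 40, against 27.0%. All 4 CD48dim and CD41/CD9-negative libraries were above the other 4 for 7 genes (17.5%), against 2.99% of all tested genes, and below them for 0, against 3.37%. Those 7 were Isg15, Ifi44, Irf9, Oas2, Oas3, Parp9 and Parp14, and the count was 13 without CD48dim replicate 2 (5.33% of all tested genes) and 11 in deposited TPM (4.37%). The CD41/CD9-negative libraries were highest for 4 genes (10%, against 8.1%) and lowest for 4 (10%, against 6.29%). The CD34bright libraries were lowest for 4 (10%, against 4.18%) and the CD48bright libraries for 2 (5%, against 1.43%), and neither population was highest for any (background 4.86% and 1.38%).

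CD48dim was set against each other population in turn, to ask how the CD48dim gate differs on the listed genes. Over CD48bright, from which it differs in the CD48 gate alone, 1 of 40 genes was called (0.387% of all tested genes). It was Ifi205, lower in CD48dim (0.273% of all tested genes were lower), and 0 were higher (0.114%). DESeq2 called 9 higher and 1 lower in this pair, with 5.88% of all tested genes called. The median log2 fold change of the 40 was 0.93, against 0.03 over all tested genes, and 29 of 40 were positive (51.8% of all tested genes). At an unadjusted p below 0.05, 14 were higher and 2 lower, against 7.72% and 6.85% of all tested genes. The median was 0.20 without CD48dim replicate 1 and 0.87 without CD48dim replicate 2. By role it was 1.04 for the 9 sensors, 1.05 for the 12 signalling genes and 0.72 for the 19 effectors.

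Over CD34bright, 1 of 40 was called (0.577% of all tested genes), Ifi205, lower in CD48dim (0.364%), and 0 were higher (0.212%), while DESeq2 called 10 higher and 2 lower (9.56% of all tested genes called). The median was 0.88, against 0.07 over all tested genes. The log2 fold change was positive for 36 of 40 (52.9% of all tested genes), including all 12 signalling genes, and 14 were higher and 2 lower at an unadjusted p below 0.05 (10.8% and 8.26% of all tested genes). Without CD48dim replicate 1 the median was 0.51. Over CD41/CD9-negative, 2 of 40 were called (4.02% of all tested genes), Ddx58 higher (2.04%) and Ifi205 lower (1.98%), while DESeq2 called 7 higher and 2 lower (11.7% of all tested genes called). The median was 0.43, against 0.06. Positive values were held by 24 of 40 (52.6% of all tested genes), and 10 were higher and 3 lower without adjustment (10.2% and 9.3% of all tested genes). Without CD48dim replicate 1 that median was 0.23. Signalling genes had a median of 0.05 in this pair and sensors one of 0.57.

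**Figure D3:**
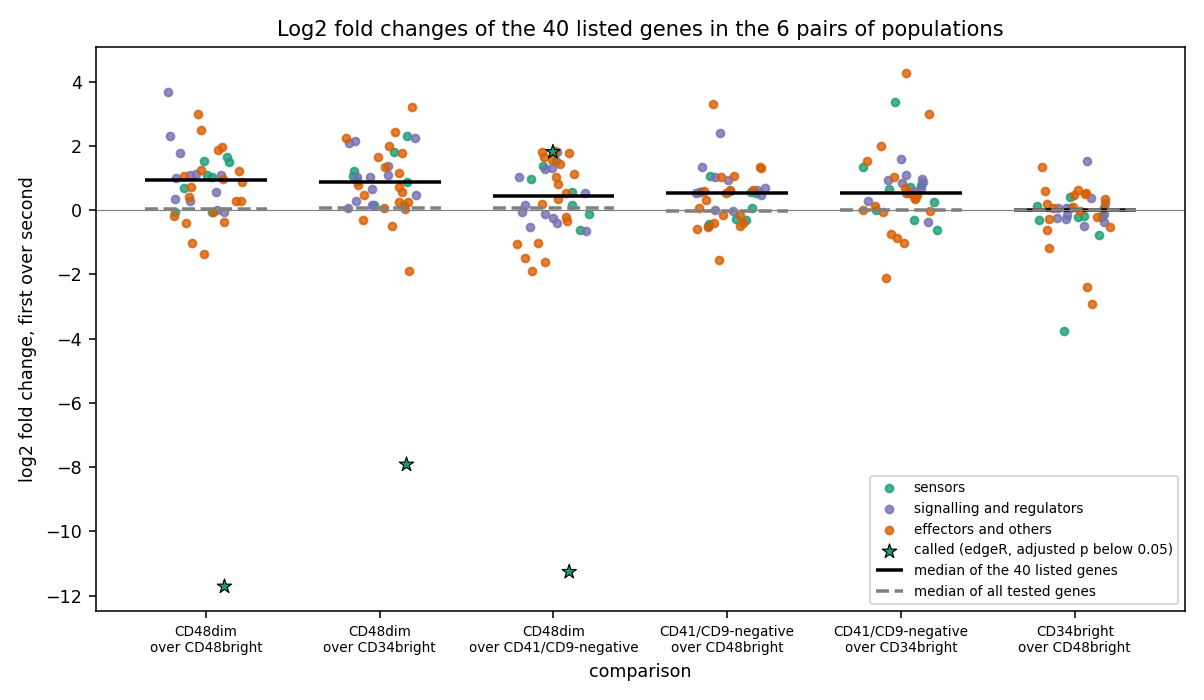
Log2 fold change, first population over second (vertical axis), of the 40 listed genes in the 6 pairs of populations, with colours for role, stars for called genes, black lines at the median of the 40 and dashed grey lines at the median of all 13177 tested genes. The black line is above the grey one in the first 5 pairs and on it in the last, and Ifi205 is the star far below 0, where its fitted value rests on 0 counts in CD48dim and is no measure of size.

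In the pairs without CD48dim no listed gene was called by edgeR with all 8 libraries, the filter and no block; other settings called up to 7. CD41/CD9-negative over CD48bright had a median of 0.53, against -0.02 over all tested genes, with 26 of 40 positive (48.7% of all tested genes). Of all tested genes, 0.212% were called (0.0835% higher and 0.129% lower). At an unadjusted p below 0.05, 3 listed genes were higher and 1 lower, against 3.73% and 3.38% of all tested genes (7.12% together). DESeq2 called 1 listed gene (2.75% of all tested genes), limma-voom 0, and edgeR 2 without the filter (1.63%) or with the 4 compared libraries alone (2.47%), and the median was 0.25 without CD41/CD9-negative replicate 1.

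CD41/CD9-negative over CD34bright had a median of 0.54, against -0.00, with 30 of 40 positive (49.5% of all tested genes). Of all tested genes, 0.842% were called (0.577% higher and 0.266% lower). At an unadjusted p below 0.05, 7 listed genes were higher and 1 lower, against 5.9% and 4.01% (9.91% together). DESeq2 called 6 listed genes (4.79% of all tested genes) and limma-voom 0, but limma-voom with library quality weights called 7 (7.03%) and edgeR with the 4 compared libraries alone also 7 (8.7%). CD34bright over CD48bright had a median of -0.00, against -0.01, with 20 of 40 positive (48.7% of all tested genes), and 0% of all tested genes were called. Without adjustment 1 listed gene was higher and 4 were lower, against 0.372% and 1.62% (1.99% together). DESeq2 called 1 (0.25% of all tested genes) and limma-voom 0. The 5 genes below 0.05 without adjustment were Ifi44, higher in CD34bright, and Ifi205, Mx1, Mx2 and Samd9l, lower in CD34bright. The pairs share libraries, so their values are not independent of one another.

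The CD48dim libraries were compared with each other because they differed on which listed genes were high. Against the mean of the other 6 libraries on the log2(CPM + 0.5) scale, the median of the 40 genes was 0.90 in CD48dim replicate 1 (0.06 over all tested genes), with 33 of 40 positive (52.8% of all tested genes). In CD48dim replicate 2 it was 0.22 (-0.12 over all tested genes), with 24 of 40 positive (46.4% of all tested genes). Both were positive for 20 of 40 (50%), against 27.7% of all tested genes. CD48dim replicate 1 was the highest of the 8 libraries for 14 genes (35%, against 19.6% of all tested genes), CD48dim replicate 2 for 11 (27.5%, against 25.8%) and CD41/CD9-negative replicate 1 for 9 (22.5%, against 9.99%).

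Bst2 had 50.9 CPM in CD48dim replicate 1, within the range of the other populations, and 8.66 CPM in replicate 2, below all of them. Genes high in CD48dim replicate 1 and not in replicate 2 included Ifi35, an interferon-induced leucine zipper protein (34.6 CPM and 6.18 CPM), and Oas1a as given above. Genes high in replicate 2 and not in replicate 1 included Herc6, Oasl1 (2.86 CPM in replicate 1 and 23.5 CPM in replicate 2) and Stat2 (62.6 CPM and 153 CPM). Oasl1 is known in the mouse as a restraint on Irf7, and Stat2 acts together with IRF9.

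**Figure D4:**
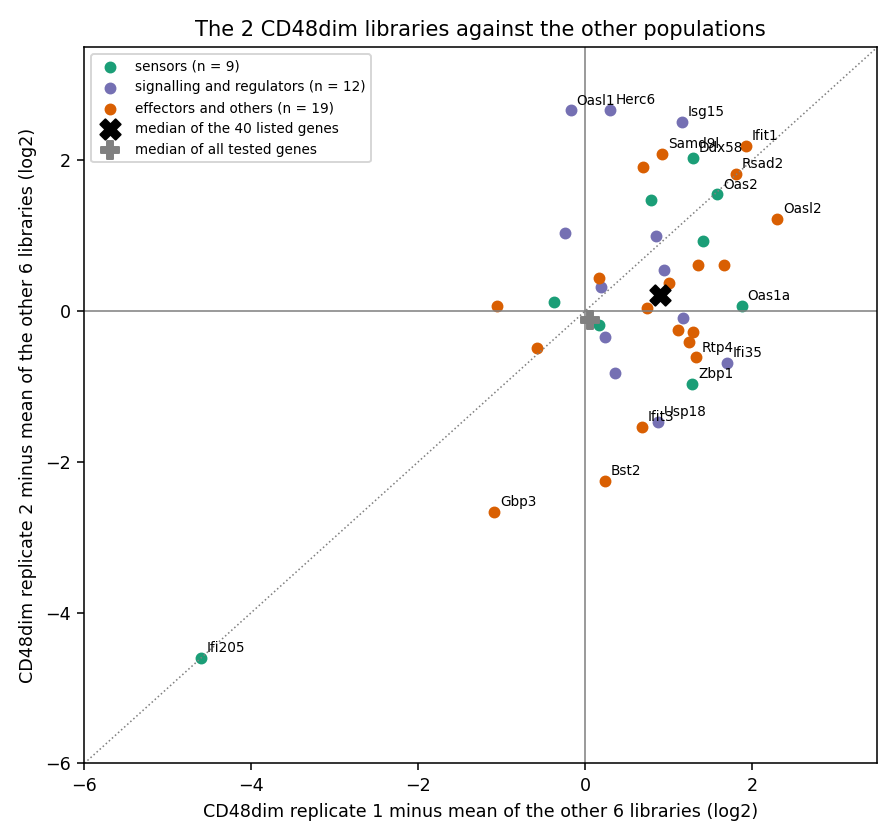
Each point is a listed gene, coloured by role, at its log2(CPM + 0.5) in CD48dim replicate 1 (horizontal) and CD48dim replicate 2 (vertical), each minus the mean of the 6 libraries of the other populations, with the dotted line at equality. The 20 genes to the upper right of 0 were above the other populations in both libraries, and the black cross at 0.90 and 0.22 is the median of the 40.

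The difference between the CD48dim libraries went with transcript length. Over the 40 genes the Spearman correlation of transcript length with replicate 2 minus replicate 1 (log2) was 0.56 in CD48dim, and over all tested genes it was 0.29. The correlation for the 40 genes was 0.29 in CD41/CD9-negative, 0.23 in CD34bright and 0.16 in CD48bright, against 0.07, 0.25 and 0.20 over all tested genes in the same order. In CD48dim the 20 listed genes shorter than 2512 bases had a median difference of -1.22 and 16 of them (80%) were lower in replicate 2, while all tested genes under that length had a median of -0.59 and 65.5% were lower. The 20 longer ones had a median of 0.14 and 13 of them (65%) were higher in replicate 2, against 0.17 and 55.2% over all longer tested genes. All points of such a correlation share the same pair of libraries, and it is given as a description. CD48dim replicate 2 also had the lowest share of counts in ribosomal protein genes, which have short transcripts, at 2.40% against 5.06% to 9.26% in the other 7 libraries. The part of length in the results above was not tested.

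**Figure D5:**
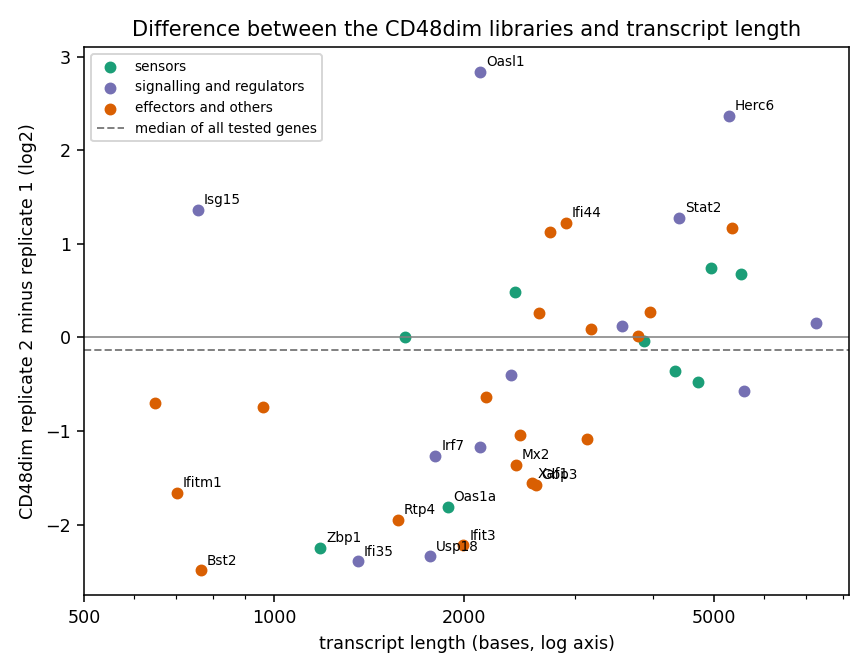
Log2 difference between the CD48dim libraries, replicate 2 minus replicate 1 on the log2(CPM + 0.5) scale (vertical), against transcript length in bases (horizontal, log axis) for the 40 listed genes, coloured by role, with the dashed line at the median of all tested genes. Short transcripts such as Bst2, Ifitm1, Zbp1 and Ifi35 lie below 0, the long transcripts of Herc6 and Stat2 lie above it, and Isg15 and Oasl1 lie above 0 although their transcripts are under 2512 bases.

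Markers of other cells also differed between the libraries. The summed level of 9 mature neutrophil genes was 4140 and 616 CPM in CD48dim cells, 686 and 49.8 CPM in CD41/CD9-negative, 130.0 and 165 CPM in CD34bright and 157 and 115 CPM in CD48bright, with all 9 genes present in every library. It was highest in CD48dim replicate 1, the library with the largest median over the listed genes. Cxcr2 and Mmp8 of this list did not follow the sum. Cxcr2 had 11.1 and 11.3 CPM in CD48dim cells, against 55.8 and 86.9 CPM in CD34bright and 26.8 and 43.9 CPM in CD48bright. Mmp8 was highest in CD41/CD9-negative replicate 1, at 26.8 CPM. The summed level of 8 stem cell genes was 1580 and 2336 CPM in CD48dim cells, against 164 to 524 CPM in the other 6 libraries, so both CD48dim libraries were high on the sum. Hoxb5 of this list, low in all libraries, did not follow it. In CD48dim replicate 2 it had 0.55 CPM, against 0.676 and 1.19 CPM in CD48bright. The summed level of 8 plasmacytoid dendritic cell genes, of which Bst2 is a listed gene, was 166 and 257 CPM in CD48dim libraries. The CD41/CD9-negative libraries had sums of 2171 and 1899 CPM, and those of the other 4 ran between 309 and 530 CPM. In CD48dim the defining gene of these cells, Siglech, was at 0, and most of both sums was Tcf4, at 105 and 245 CPM. Tcf4 ran between 114 and 238 CPM in CD34bright and CD48bright, so CD48dim replicate 2 was above them and replicate 1 below. Bst2 in CD48dim replicate 1, at 50.9 CPM, was also above those 4 libraries, which had 21.0 to 38.3 CPM. The summed level of 8 monocyte and macrophage genes was 612 CPM in replicate 1 and 352 CPM in replicate 2 of CD48dim, against 1992 CPM and 1297 CPM in those of CD41/CD9-negative, and ran between 589 and 869 CPM elsewhere. Most of the CD48dim sums was Lyz2, at 565 and 276 CPM. Every other gene of that list was lower in both CD48dim libraries than in the other 6, such as Csf1r at 6.09 and 1.37 CPM. The summed level of 6 mast cell and basophil genes was 75.5 and 128 CPM in CD48dim and 56.5 and 39.4 CPM in CD41/CD9-negative, against 624 to 860.5 CPM in the other 4, so it was low in the same 4 libraries in which 7 listed genes were high. That of 8 lymphoid progenitor genes was highest in CD41/CD9-negative (3593 and 2408 CPM, against 180 to 434 CPM elsewhere), and that of 8 megakaryocyte and platelet genes was highest in CD48dim (246 and 244 CPM, against 7.35 to 145 CPM elsewhere). The last list holds Itga2b, the gene of CD41, on which the cells were sorted, so its sum is not independent of the gates. Itga2b had 155 and 112 CPM in CD48dim cells and 2.83 and 2.18 CPM in CD41/CD9-negative. Some low genes of that list did not follow its sum in CD48dim replicate 2. There Treml1 had 1.65 CPM, against 2.37 to 4.99 CPM in CD34bright and CD48bright, and Gp1bb was at 0. The part of the marked cell types in the levels of the listed genes was not tested.

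The rest of the pathway was read from lists of receptors and signal genes, adaptors upstream of interferon, and further interferon-inducible genes. Of 19 tested receptor and signal genes, 1 was called in each pair with CD48dim, where 4.02% (against CD41/CD9-negative), 0.577% (against CD34bright) and 0.387% (against CD48bright) of all tested genes were called. It was Irf8, a factor needed for dendritic cell and monocyte development, which fell to 6.83 and 0.275 CPM in CD48dim cells, against 1104 and 820.4 CPM in CD41/CD9-negative (adjusted p = 0.00445), 143 and 141 CPM in CD34bright (adjusted p = 0.0436) and 170 and 207 CPM in CD48bright (adjusted p = 0.0453, edgeR). The receptor gene Ifnar1 had 93.0 and 77.8 CPM in CD48dim cells, 172 and 148 CPM in CD41/CD9-negative, 91.0 and 87.6 CPM in CD34bright and 76.2 and 94.1 CPM in CD48bright, and CD41/CD9-negative lay above the others. Of the 19 genes, 4 (21.1%, against 11.6% of all tested genes) were lowest in both CD48dim libraries, Irf8 and the receptor genes Ifnar2, Ifngr2 and Il10rb. Another 2 (10.5%, against 11.6%) were highest in both, the receptor gene Ifnlr1 and the kinase gene Tyk2. Ifnar2 had 68.6 and 71.9 CPM in CD48dim cells, against 76.1 to 205 CPM in the other 6 libraries.

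Of 14 adaptors, 4 fell in CD48dim against CD41/CD9-negative and 0 rose (1.98% of all tested genes fell and 2.04% rose). They were the endosomal receptors Tlr7 (log2 fold change -5.61 ± 1.03, adjusted p = 0.0201) and Tlr9 (-6.84 ± 1.00, adjusted p = 0.00807), their chaperone Unc93b1 (-2.89 ± 0.35, adjusted p = 0.00382) and Tmem173, which encodes STING (-2.37 ± 0.40, adjusted p = 0.0149). Unc93b1 was also higher in CD41/CD9-negative than in CD34bright (1.76 ± 0.33, adjusted p = 0.0489, edgeR). Both CD48dim libraries were above the other 6 for 2 of the 14 adaptors, Ikbke and Traf3 (14.3%, against 11.6% of all tested genes). They were below the other 6 for 4 (28.6%, against 11.6%). Ikbke had 82.4 and 71.3 CPM in CD48dim cells, against 22.7 to 35.0 CPM in the other 6 libraries. Tlr7, Tlr9 and Unc93b1 are known for their use by plasmacytoid dendritic cells, whose marker sum was given above. Of 41 other interferon-inducible genes, 2 rose in CD41/CD9-negative over CD34bright, the guanylate-binding proteins Gbp6 (4.32 ± 0.73, adjusted p = 0.0343) and Gbp9 (4.70 ± 0.88, adjusted p = 0.0472), where 0.577% of all tested genes rose. In the other pairs 0 were called by edgeR with all 8 libraries. Their median log2 fold change was 0.37 in CD48dim over CD48bright, 0.43 over CD34bright and -0.03 over CD41/CD9-negative. At an unadjusted p below 0.05, 10 were higher and 1 lower in CD48dim than in CD48bright (7.72% and 6.85% of all tested genes). Over CD34bright 14 were higher and 5 lower (10.8% and 8.26%), and over CD41/CD9-negative 6 were higher and 5 lower (10.2% and 9.3%).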

How the data were processed

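RNA of 8 libraries was used, grouped by the sort gates in the labels. Per the labels' protocols, total RNA was amplified with the Ovation system before a TruSeq kit, and the libraries are not stranded. The submitters' processing notes name the build mm10 with STAR 2.7.2a, RSEM 1.3.2 and edgeR 3.30.3. Which annotation release was used is not stated there. The deposited expected counts, estimates per gene that need not be whole, were rounded to whole numbers. The deposited TPM values, scaled for length and library total per the file headers, were used only for levels between genes and as an alternative. Transcript lengths and the posterior SD of counts are the authors' deposited columns. The members and lists were chosen with earlier results of these data known.

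Genes were filtered with filterByExpr of edgeR 4.0.16 by population and scaled by TMM. One model with a mean per population over all 8 libraries had 4 residual and 5.46 prior degrees of freedom and a biological coefficient of variation of 49.8%. Any difference and the 6 pairs were tested with the quasi-likelihood F-test, two-sided, with Benjamini-Hochberg adjustment over all tested genes. Each SE was approximated by dividing the log2 fold change by the square root of F. DESeq2 1.42.0, limma 3.58.1 (R 4.3.3), other scalings, no filter, the replicate number as a block, the 4 compared libraries alone and each library left out were alternatives. The tests were also tried on simulated data, in which the changed genes had large changes and less spread than the 49.8% above. That trial is no measure of the power of the tests in these libraries.

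Given in all 8 libraries were genes called in any test, the 4 smallest p per role in the test of any difference, the 3 highest per length in each role, and genes at 0 in both libraries of a population; others were named after their values were seen. Gene positions are those of GRCm38.p6, the assembly of mm10. Of 37 promoter windows of listed genes, 34 ended in a sequence found in an annotated transcript of the gene, including all printed. Some results are not reported here.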

Additional observations from a re-analysis of the deposited data

How the results depend on the processing

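Counts of listed genes called depended on the tool and the libraries. In the order any difference, CD48dim over CD48bright, over CD34bright and over CD41/CD9-negative, then CD41/CD9-negative over CD48bright and over CD34bright, then CD34bright over CD48bright, the counts were 3, 1, 1, 2, 0, 0 and 0 (2.44%, 0.387%, 0.577%, 4.02%, 0.212%, 0.842% and 0% of all tested genes). DESeq2 size factors and upper-quartile scaling gave the same 7 counts. DESeq2 gave 18, 10, 12, 9, 1, 6 and 1, but also called 12.9%, 5.88%, 9.56%, 11.7%, 2.75%, 4.79% and 0.25% of all tested genes. Limma-voom gave 1, 0, 0, 2, 0, 0 and 0 (1.07%, 0.0379%, 0.342%, 3.57%, 0.288%, 1.11% and 0% of all tested genes). With library quality weights it gave 0, 0, 0, 0, 1, 7 and 1 (0.569%, 0.0152%, 0.713%, 1.43%, 2.28%, 7.03% and 0.114%). Without the filter the counts were 13, 5, 8, 8, 2, 5 and 1 (8.69%, 3.18%, 5.51%, 6.44%, 1.63%, 2.88% and 0.211% of all tested genes). With the compared 4 libraries alone the 6 pairs gave 0, 0, 1, 2, 7 and 0 (0%, 0%, 1.02%, 2.47%, 8.7% and 0% of all tested genes). Leaving out a library gave ranges of 1 to 16, 0 to 15, 0 to 17, 1 to 9, 0 to 2, 0 to 6 and 0 to 1. Every highest value came from leaving out a CD48dim library. This leaves CD48dim without a spread of its own, so the lone library is assumed to vary like the others. In every pair such a fit also called a larger share of all tested genes than the fit of all 8 libraries. The highest counts of the pairs are therefore no gain of the listed genes alone. Over all tested genes such a fit also called more, 24.7% in the test of any difference without CD48dim replicate 1 and 9.11% without CD48dim replicate 2. With the replicate number as a block the counts were 7, 3, 6, 6, 1, 2 and 0 (5.8%, 1.35%, 5.18%, 7.32%, 0.751%, 2.02% and 0% of all tested genes). The labels give the numbers no meaning beyond the population, and the differences between replicates correlated at 0.142 to 0.274 over the 6 pairs of populations, across genes. The count of genes with both CD48dim libraries highest was 11 (12 with DESeq2 size factors, 13 with deposited TPM, 11 to 21 without a library). That with all 4 CD48dim and CD41/CD9-negative libraries highest was 7 (11 with deposited TPM, 7 to 13 without a library). Both counts and their alternatives were chosen after seeing the data. The cause of these shifts was not tested. With 0 counts in both CD48dim libraries, the sign of Ifi205 in the 3 pairs with CD48dim could not change under any alternative. Of the 16 alternatives run for each pair, fits without a library included, 15 called Ifi205 against CD41/CD9-negative. Against CD48bright 12 called it, and against CD34bright 7 did. Ddx58 in CD48dim over CD41/CD9-negative kept its sign under all 16 and was called in 8. With 2 libraries a population and low counts for Isg15, Ifit3, Zbp1 and Mx2, differences within their spread were not detectable at this depth.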

Other observations

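Transcripts of the interferons themselves were nearly absent. Of 19 interferon ligand genes, 9 had any count, with 142 counts over the 8 libraries, and 1 passed the filter. Interferon beta, Ifnb1, had 0 and 0 counts in CD48dim, 14 and 0 in CD41/CD9-negative, 1 and 0 in CD34bright and 0 and 13 in CD48bright. The interferon alpha genes Ifna1, Ifna2 and Ifna4 had 14, 12 and 9 counts in CD41/CD9-negative replicate 1, and 0 in both CD48dim libraries. Interferon gamma, Ifng, had 0 and 0 counts in CD48dim, 0 and 2 in CD41/CD9-negative, 2 and 10 in CD34bright and 15 and 23 in CD48bright. Each of these is a value of single libraries with few counts, and none was compared.

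The letters of the gamma-activated sequence, TTC, 3 bases of any kind and GAA, on both strands, stood in the promoter windows of 8 of 31 listed genes (25.8%), against 9.55% of all genes with a window. They stood in the windows of Bst2, Eif2ak2, Ifi35, Ifit2, Ifitm3, Irf1, Isg20 and Oas1a, of which Isg20 was highest in both CD48dim libraries.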
